A study of Mus musculus with 2 samples.

Results

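Axon guidance ligands and receptors were followed in 2 RNA-Seq libraries of whole mouse brain at E17.5. The members were the autosomal protein-coding genes whose symbols belong to the semaphorin classes 3 to 7 (Sema3 to Sema7), plexin (Plxn), neuropilin (Nrp), ephrin (Efna and Efnb), Eph receptor (Epha and Ephb), Slit, Robo, netrin (Ntn), Unc5 and Dcc families. The rule used symbols and chromosomes only, and it found 66 genes, 34 ligands and 32 receptors, among 21417 autosomal protein-coding genes and 37309 genes of the annotation in all. 3 genes of these families on the X chromosome, Plxna3, Plxnb3 and Efnb1, were left out by the rule.

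The BxC library came from 1 F1 hybrid of a C57BL/6J mother and a CastEi/J father, and the CxB library from 1 hybrid of the reciprocal cross. The crosses were made to separate the effect of the parent from that of the strain. No mutant allele or treatment is given for either embryo, and each library was made from an unpooled brain. The methods also describe other BxC brains, which were not used here. With 1 library per cross the crosses were not tested against each other, and differences are given as ratios with intervals that cover counting error only.

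Growing axons carry receptors that read cues set along their path, and each family is known for a typical cue. Semaphorins act through plexins, and those of class 3 are secreted and bind neuropilins first. Ephrins are attached to the membrane, those of class A by a lipid anchor and those of class B by a transmembrane segment, and they act on Eph receptor tyrosine kinases by contact. Slits are secreted ligands of Robo receptors and are known for keeping axons from crossing or recrossing the midline. Netrins attract axons through Dcc and repel them through Unc5 receptors. Many of the same genes also act in blood vessels and in migrating neurons.

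The libraries held 128944754 aligned reads for BxC and 109719746 for CxB. Levels are given in RPKM, the reads that overlap the exons of a gene divided by the exon length and by the total of the library. The members took 746379 reads in BxC and 629981 in CxB, 0.579% and 0.574% of the libraries. The labelled tissue was checked against marker genes, whose summed level was 1461 RPKM in BxC and 1343 in CxB for 5 neuronal genes, 155 and 158 for 5 genes of neural progenitors and 37.7 and 37.5 for 6 endothelial genes. Markers of other tissues in the sample summed to 279 and 227 RPKM for 3 blood genes, 258 and 286 for 4 genes of the choroid plexus and 45.5 and 42.1 for 4 genes of meninges and mesenchyme. Of 4 pituitary markers 2 were at 0 and Pomc, which some neurons also express, was at 1.69 and 1.67 RPKM, and the 4 markers of skeletal muscle summed to 3.55 and 3.50 RPKM. Chromosome Y had 1852 reads in BxC and 18212 in CxB, and Xist had 142957 and 38, so the cross and the sex of the embryo cannot be told apart. In a whole brain, fewer cells of a type and less RNA per cell cannot be told apart either.

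Most of the guidance genes were expressed at this age. 59 of the 66 members reached 1 RPKM in both libraries, against a background of 54.7% of autosomal protein-coding genes. Their median level was 8.73 RPKM in both libraries, while that of all autosomal protein-coding genes was 1.64 in BxC and 1.65 in CxB. By mean level, 37 members were at or above the 75th percentile of those genes and 9 were below their median. The levels ran from 0.237 RPKM for Epha1 to 77.0 for Efnb3 in BxC, and from 0.337 to 78.0 for the same genes in CxB. The order of the members was nearly the same in both libraries (Spearman's rho = 0.997 across 66 genes, a description, since the genes share libraries).

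**Figure D1:**
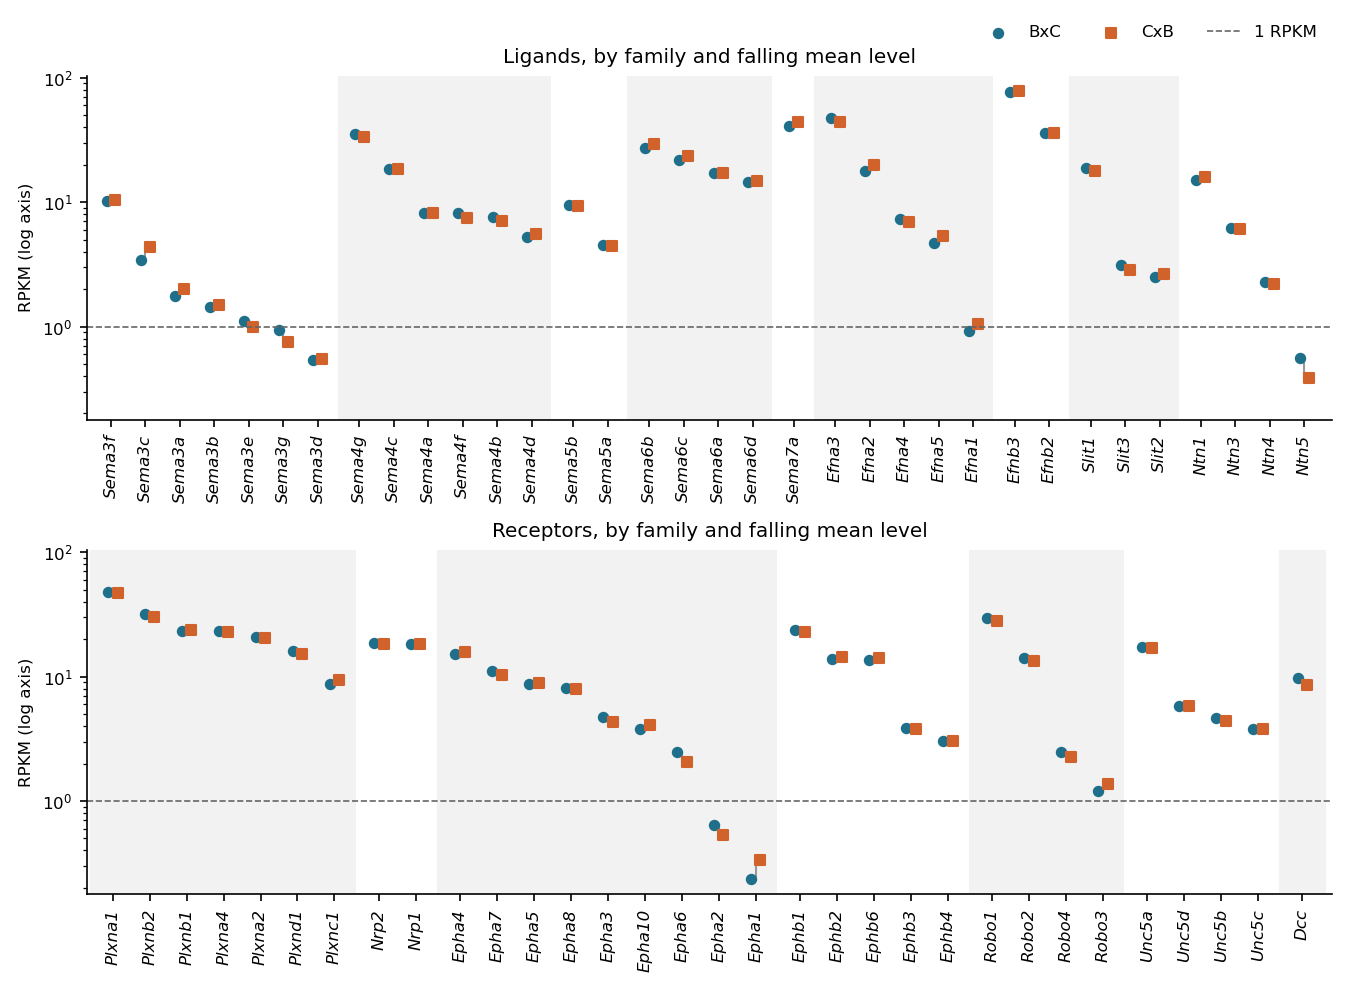
Level of each of the 66 members in RPKM, on a log axis, in the BxC library (circles) and the CxB library (squares), for ligands (top) and receptors (bottom). Within a family the genes are ordered by mean level, and 59 members lie above the line at 1 RPKM in both libraries.

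Among the ligands, the secreted class 3 semaphorins were lower in median than the membrane-bound semaphorins of classes 4 to 7. The medians were 1.45 RPKM in BxC and 1.49 in CxB against 14.6 and 14.7, but Sema3f lay within the range of the membrane-bound genes. The 7 Sema3 genes summed to 19.4 RPKM in BxC and 20.5 in CxB, and the 13 genes of classes 4 to 7 to 218 and 223. Within class 3, Sema3f, a repellent that acts through Nrp2, was at 10.3 and 10.4 RPKM, 52.8% and 50.7% of the class. Sema3d was lowest, at 0.543 RPKM (0.495 to 0.593, exact Poisson interval) and 0.548 (0.497 to 0.604). The other 5 class 3 genes lay between these, and 4 of the 7 reached 1 RPKM in both libraries.

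The class 4 genes spanned 5.20 to 35.0 RPKM in BxC and 5.53 to 33.2 in CxB. Sema4g led with 35.0 and 33.2 RPKM, and Sema4d, a ligand of plexin B1, was lowest at 5.20 and 5.53. On coding exons alone Sema4f was lowest, at 8.42 and 8.05 RPKM against 9.50 and 9.63 for Sema4d. Sema5b, a transmembrane semaphorin with thrombospondin repeats, was at 9.53 and 9.36 RPKM and its relative Sema5a at 4.55 and 4.41. Sema7a, which is anchored by a lipid and binds plexin C1, was at 40.8 and 44.4 RPKM and was the third highest ligand in BxC and the second in CxB. On coding exons alone it had 37.3 and 41.6 RPKM, below Efnb3, Efna3 and Efnb2 in both libraries.

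Class 6 was even in level. Sema6b had 27.0 RPKM in BxC and 29.4 in CxB and Sema6d, the lowest, 14.6 and 14.7, and all 4 genes were above the 75th percentile of protein-coding genes. These transmembrane proteins act both as ligands and as receptors. The class also held 4 of the 11 alternative exons described here, and 2 of them are shown here as examples of coding exons read in both forms. For each exon, the reads over the junctions on both sides were averaged. Inclusion is this mean as a share of the mean plus the reads of the skipping junction counted for the exon. Reads of other junctions that skip the exon were left out. In the sequences, given on the strand of the gene from 5′ to 3′, capitals mark the exon and lower case the 10 intron bases on each side, except where the text says otherwise for Nrp2 and Epha7. The Sema6c exon of 96 bases lies at chr3:94975713-94975808 on the plus strand of mm9 and the Sema6d exon of 57 bases at chr2:124486441-124486497, also on the plus strand.
Sema6c: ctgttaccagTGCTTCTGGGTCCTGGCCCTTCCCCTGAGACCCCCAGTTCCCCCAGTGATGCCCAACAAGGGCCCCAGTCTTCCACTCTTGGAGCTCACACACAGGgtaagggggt
Sema6d: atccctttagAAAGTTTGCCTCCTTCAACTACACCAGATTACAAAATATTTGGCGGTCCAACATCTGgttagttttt
The Sema6c exon was included at 38.8% (30.8 to 47.5, exact Clopper-Pearson interval) in BxC and 38.5% (30.8 to 47.0) in CxB. Its 5′ junction alone gave 53.1% and 51.2% and its 3′ junction alone 11.8% and 17.1%, so reads were unevenly spread over the junctions. The Sema6d exon was included at 66.7% (47.4 to 83.4) and 60.0% (36.3 to 82.2) with the skipping junction that was counted. Its 5′ junction alone gave 76.5% and 57.1% and its 3′ junction alone 42.9% and 62.5%. Another 11 and 6 reads from its upstream donor skipped this Sema6d exon into an acceptor farther downstream. They were left out of its inclusion, which was therefore lower than given. Of all reads from this donor, 57.8% in BxC and 40% in CxB joined the Sema6d exon. Sema6a had an exon of 165 bases included at 30.5% (23.6 to 38.3) and 32.0% (22.1 to 43.9) and another of 51 bases at 20% (11.1 to 32.4) and 14.9% (5.88 to 30.1). With each distinct position counted once the exon of 165 bases was at 51.4% in BxC and 33.3% in CxB. No read crossed the 3′ junction of the exon of 51 bases in either library. From its upstream donor another 73 and 35 reads skipped this exon together with that of 165 bases. A donor farther upstream had 5 and 12 reads that skipped both exons and were not counted for the exon of 165 bases. These skipping reads of both donors were not counted for the exon of 51 bases, so its inclusion was lower than given. Of all reads from its donor, 12.7% and 11.3% joined it. In Sema4c, a noncoding exon of 127 bases was included at 13.8% (5.87 to 26.8) and 12.3% (4.86 to 25.0). Its 5′ junction alone gave 3.85% and 10.7% and its 3′ junction alone 21.9% and 13.8%, so the order of the libraries turned with the junction. Another 8 reads in each library skipped this Sema4c exon into an acceptor 3 bases from the counted one. They were left out of its inclusion, which was therefore lower than given.

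The ephrins held the highest member of all. Efnb3, a transmembrane ephrin of the class known to act at the midline of the spinal cord, was at 77.0 RPKM in BxC and 78.0 in CxB and made up 16.1% and 16.2% of the summed level of all ligands. It lies at chr11:69367594-69373707 on the minus strand and spans 6.11 kb, the third shortest of the members. Efnb2, a ligand of Ephb4 that also marks arteries, was at 35.9 and 36.1 RPKM. Among the lipid-anchored ephrins Efna3 was highest at 47.6 and 43.8 RPKM, and an overlapping gene shares part of its exons, 85.9% of which belong to Efna3 alone. Efna1 was lowest at 0.924 RPKM (0.805 to 1.05) and 1.05 (0.909 to 1.20), and 4 of the 5 Efna genes reached 1 RPKM in both libraries.

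Efnb2 carried a coding exon of 93 bases that most of its transcripts held, at chr8:8623148-8623240 on the minus strand, shown because both forms were read in both libraries.
Efnb2: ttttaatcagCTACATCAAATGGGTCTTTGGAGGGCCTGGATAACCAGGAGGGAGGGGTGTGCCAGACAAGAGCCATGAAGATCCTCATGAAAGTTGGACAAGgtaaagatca
The exon was included at 81.0% (64.6 to 92.4) in BxC and 88.7% (74.5 to 96.8) in CxB, from 6 and 4 reads that skipped it. The intervals overlapped.

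The Slit and netrin families were each led by 1 gene. Slit1 had 18.7 RPKM in BxC and 17.7 in CxB, 76.8% and 76.4% of the family sum, while Slit2 was lowest at 2.49 and 2.62. Ntn1, the netrin of the floor plate, had 15.1 and 16.0 RPKM. Ntn5 was the only member under the minimum of 100 reads in each library set for ratios, with 114 reads in BxC and 67 in CxB, which gave 0.562 RPKM (0.463 to 0.675) and 0.388 (0.301 to 0.493). No ratio is read from it.

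Summed over the roles, the 14 secreted ligands (Sema3, Slit and Ntn) came to 67.9 RPKM in BxC and 68.3 in CxB and the 20 membrane-attached ligands to 409 and 414. The summed level was thus mostly that of ligands that stay on cells. These sums add genes of unequal exon length on a per-kilobase scale and say nothing of protein.

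Among the receptors, plexins were the highest family. The 7 plexins summed to 171 RPKM in BxC and 169 in CxB, and all 7 were above the 75th percentile of protein-coding genes. Plxna1, a partner of neuropilins in class 3 semaphorin signalling, led with 47.6 and 47.0 RPKM, at chr6:89266310-89312607 on the minus strand. Plxnc1, the receptor of Sema7a, was lowest at 8.69 and 9.39 RPKM. Plxnd1, a receptor of Sema3e known from vessels as well as axons, was at 16.2 and 15.3 RPKM and was named after its values were seen.

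The neuropilins were level with each other. Nrp1 had 18.3 RPKM in BxC and 18.4 in CxB and Nrp2 18.7 and 18.2, so the order of the pair changed between the libraries. Nrp2 transcripts split at 1 donor between 2 downstream acceptors, and these forms were chosen after their values were seen. The nearer acceptor, of an alternative last exon, took 22 of 69 reads (31.9%, 21.2 to 44.2) in BxC and 11 of 44 (25.0%, 13.2 to 40.3) in CxB, and the farther took 43 and 32. A second donor 15 bases downstream added the capitals in the sequence below, of an exon at chr1:62832855-62832890 on the plus strand, and here lower case holds the rest of that exon as well as 10 intron bases on each side.
Nrp2: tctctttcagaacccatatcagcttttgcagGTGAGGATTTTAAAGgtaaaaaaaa
Into the farther acceptor, this second donor was used by 5 of 48 reads (10.4%, 3.47 to 22.7) in BxC and 9 of 41 (22.0%, 10.6 to 37.6) in CxB. The stretch between the donors begins with GT, the bases that the first donor needs.

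Of the class A Eph receptors, Epha4, which binds ephrins of both classes, was highest with 15.1 RPKM in BxC and 15.9 in CxB. On coding exons alone Epha7 was above Epha4 in BxC, at 16.9 against 15.5, but not in CxB, at 15.2 against 15.7. Epha1 was lowest, with 100 and 121 reads, 0.237 RPKM (0.193 to 0.288) and 0.337 (0.280 to 0.403). Epha2 was also below 1 RPKM, at 0.640 and 0.528. The other 6 class A receptors lay between 2.05 and 11.2 RPKM.

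Epha5 and Epha7 were each read in more than 1 form. Epha5 has a coding exon of 66 bases at chr5:84546586-84546651 on the minus strand. Epha7, whose forms were chosen after their values were seen, has an alternative last exon with only a short coding part at chr4:28873369-28873403 on the plus strand. Truncated Epha7 without a kinase domain is a known form of this receptor. The Epha7 sequence shows the coding part with its stop codon in capitals, preceded by intron bases.
Epha5: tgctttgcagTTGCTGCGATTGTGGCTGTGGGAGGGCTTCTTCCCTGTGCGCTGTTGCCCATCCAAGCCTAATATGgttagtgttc
Epha7: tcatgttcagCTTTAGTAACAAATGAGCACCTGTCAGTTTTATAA
The Epha5 exon was included at 26.9% (14.6 to 43.7) in BxC and 30.6% (17.0 to 48.4) in CxB, so most transcripts skipped it. In Epha7, the alternative last exon took 14 of 53 reads from its donor (26.4%, 15.3 to 40.3) in BxC and 21 of 38 (55.3%, 38.3 to 71.4) in CxB. The next exon of the long form took 35 reads (66.0%, 51.7 to 78.5) and 17 (44.7%, 28.6 to 61.7). This was among the largest shifts between the libraries, and the intervals still overlapped.

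Class B Eph receptors were fewer and more even. Ephb1 led with 23.6 RPKM in BxC and 22.7 in CxB. On coding exons alone Ephb2 was above Ephb1 in CxB, at 25.5 against 24.6, but not in BxC, at 25.9 against 26.4. Ephb4, the receptor of Efnb2 on veins, was lowest with 3.05 and 3.02 RPKM. Ephb2 and Ephb6 had overlapping ranges, between 13.7 and 14.3 RPKM. Ephb2 also had acceptors 3 bases apart, and the farther from the gene's start took 23 of 27 reads in BxC and 29 of 33 in CxB, a form named after its values were seen.

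Robo1 and Robo2, the receptors that neurons use to read Slits, were far above the other members of their family. Robo1 had 29.5 RPKM in BxC and 28.1 in CxB, and Robo2 14.1 and 13.3. Robo3, needed for commissural axons to cross, was lowest with 1.20 and 1.37 RPKM. Robo4, known from endothelium, had 2.48 and 2.24 RPKM beside the endothelial markers given above, whose part in its level was not tested.

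With 1 skipping junction counted per exon, Robo2 and Sema6a had the most annotated alternative exons of the members. Robo2 lies at chr16:73892551-74412070 on the minus strand, and 3 alternative exons of it were read, of 273, 126 and 12 bases, the first pair coding. The exon of 12 bases has no record in the annotation used here, so whether it is coding is not annotated, and it was found by a search for short exons joined by reads, which was added after seeing the data. Their positions are chr16:73899157-73899429, chr16:73933291-73933416 and chr16:74009020-74009031, and all 3 have AG before and GT after them on the strand of the gene.
Robo2, exon of 273 bases: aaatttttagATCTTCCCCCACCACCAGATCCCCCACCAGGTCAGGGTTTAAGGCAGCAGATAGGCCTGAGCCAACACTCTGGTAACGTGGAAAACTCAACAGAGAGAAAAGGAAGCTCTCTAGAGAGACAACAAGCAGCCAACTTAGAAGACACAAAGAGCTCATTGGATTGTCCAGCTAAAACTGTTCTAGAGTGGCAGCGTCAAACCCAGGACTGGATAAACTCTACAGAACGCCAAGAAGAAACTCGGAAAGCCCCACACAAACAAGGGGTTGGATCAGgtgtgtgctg
Robo2, exon of 126 bases: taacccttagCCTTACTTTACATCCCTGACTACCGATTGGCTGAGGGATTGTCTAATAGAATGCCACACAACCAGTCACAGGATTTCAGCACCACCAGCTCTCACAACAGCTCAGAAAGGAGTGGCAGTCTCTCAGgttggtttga
Robo2, exon of 12 bases: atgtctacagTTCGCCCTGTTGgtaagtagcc
The exon of 273 bases was included at 49.9% (45.4 to 54.6) in BxC and 53.7% (48.6 to 58.7) in CxB. It was the best covered alternative exon, with 177 and 139 skipping reads, but its 5′ junction had 299 and 262 reads and its 3′ junction 54 and 60. Taken alone, the 5′ junction gave 62.8% and 65.3% and the 3′ junction 23.4% and 30.2%, a gap far outside the counting intervals. The level of inclusion is therefore less certain than its interval, while the libraries were alike in each junction.
The exon of 126 bases was included at 75.6% (65.8 to 84.0) in BxC and 79.3% (67.7 to 88.5) in CxB. For the exon of 12 bases, 21 and 17 reads joined its sides and 20 skipped it in BxC, and 29 and 9 joined and 16 skipped in CxB. Its inclusion was 48.7% (35.0 to 63.3) and 54.3% (39.3 to 69.5). Each alignment has at most 2 blocks, so a read of 36 bases that crosses the whole exon could not be held, and fewer read positions could count for the exon than for its skipping.
Robo2 also had donors 9 bases apart at 1 junction, a choice named after its values were seen. The donor of the longer form was used by 48 of 75 reads (64.0%, 52.1 to 74.8) in BxC and by 8 of 22 (36.4%, 17.2 to 59.3) in CxB. The more used donor thus differed between the libraries, with intervals that overlapped.

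Of the netrin receptors, Unc5a was highest with 17.4 RPKM in BxC and 16.9 in CxB. Unc5c was lowest with 3.78 RPKM in both. On coding exons alone Unc5b was lowest, with 5.12 and 4.72 RPKM against 7.82 and 7.28 for Unc5c. Dcc had 9.70 and 8.52 RPKM over 1092 kb, the longest span of the members. Unc5a and Unc5c each have a coding exon that was mostly skipped, of 168 bases at chr13:55098554-55098721 and of 57 bases at chr3:141449821-141449877, both on the plus strand.
Unc5a: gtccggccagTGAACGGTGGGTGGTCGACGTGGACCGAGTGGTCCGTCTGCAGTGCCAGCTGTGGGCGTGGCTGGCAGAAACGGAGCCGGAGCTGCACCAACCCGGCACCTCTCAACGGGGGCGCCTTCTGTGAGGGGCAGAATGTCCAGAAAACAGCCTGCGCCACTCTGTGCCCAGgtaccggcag
Unc5c: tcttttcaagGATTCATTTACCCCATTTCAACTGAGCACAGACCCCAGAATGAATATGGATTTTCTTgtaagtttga
The Unc5a exon was included at 11.1% (4.74 to 21.7) in BxC and 18.6% (9.20 to 32.7) in CxB. The Unc5c exon was included at 12.8% (4.07 to 29.3) and 22.2% (11.4 to 37.8). The intervals overlapped, from at most 12 reads on the sides of either exon. Taken alone, the 5′ junction of the Unc5a exon gave 8.57% in BxC and 31.4% in CxB and the 3′ junction 13.5% and 0%, so the order of the libraries turned with the junction. For the Unc5c exon the 3′ junction alone gave 5.56% and 16%.

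In all, 23 annotated cassette exons of the members had at least 20 junction reads in each library, and 11 of them, in 9 genes, were included at 10% to 90% in both. Over all autosomal protein-coding genes 21.8% of 4517 such exons were, a difference that was not tested. The Sema6a exon of 51 bases and the Sema4c exon would leave this range if the other reads that skip them were counted. The members' number was 5 when each distinct position was counted once and 5 with a minimum of 50 junction reads. The exons lost had no inclusion value under these settings, and those of the 11 with a value stayed at 10% to 90%. The intervals of the libraries overlapped for all 11, and over all genes they did not for 5.17% of 986 such exons. Of the 11 exons 10 are coding, and all 10 are a multiple of 3 bases long, as are 10 of the 11 other coding cassette exons of the members with the same junction minimum. Over all autosomal protein-coding genes 77.6% of 737 coding cassette exons included at 10% to 90% in both libraries had such a length, and 55.4% of the 2468 others. An exon of such a length can be skipped without a shift of the reading frame. Over all splice sites of the members, 63 junction choices at 30 shared sites in 14 genes were used at 10% to 90% in both libraries, and the intervals overlapped for each of the 63. The 30 sites were among 1040 of the members with at least 20 junction reads in each library, and over all autosomal protein-coding genes 3.49% of 97524 such sites had a choice of this kind. The intervals did not overlap for 4.15% of the 6803 choices of all genes. Beside shares this low, the counts of 0 among 11 and 63 are not read as particular to the members.

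**Figure D2:**
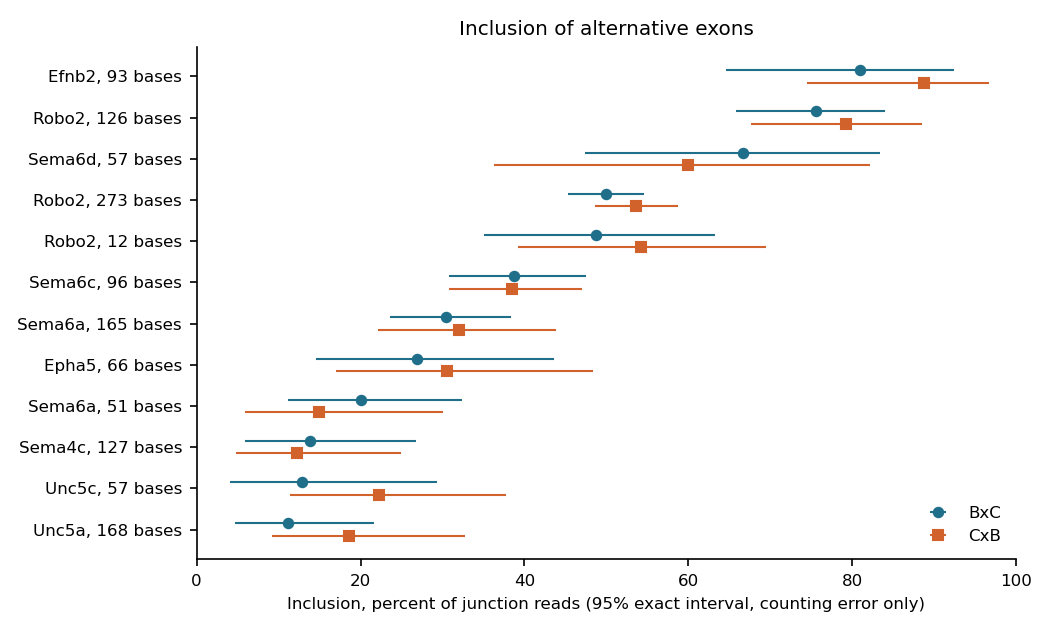
Inclusion, in percent of junction reads, of 12 alternative exons (11 annotated and the Robo2 exon of 12 bases) in BxC (circles) and CxB (squares), with 95% exact intervals that cover counting error only. The exons run from 11.1% for Unc5a to 81.0% for Efnb2 in BxC, and the intervals of the libraries overlap for each exon.

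Ligand and receptor sums were compared for the families known to bind each other. Among the autosomal members, class B ephrins and semaphorins exceeded their receptors, and Slits and class 3 semaphorins were below theirs. This held in both libraries and under each alternative count and gene model tried. The X-linked Plxna3, Plxnb3 and Efnb1 are not in these sums, and no alternative added them. Class B ephrins summed to 113 RPKM in BxC and 114 in CxB against 57.9 and 57.7 for Ephb receptors, a ratio of 1.95 and 1.98. Class A ephrins summed to 78.1 and 77.1 against 55.1 and 54.3 for Epha receptors, but with each distinct position counted once the order turned, and the ratio of the class A ephrins to their receptors fell from 1.42 in both libraries to 0.917 in BxC and 0.982 in CxB. Robo receptors, at 47.3 and 45.1 RPKM, were 1.95-fold the Slits in both libraries, and on coding exons alone 3.74-fold and 3.71-fold. Neuropilins, at 37.1 and 36.6, were 1.91-fold and 1.79-fold the class 3 semaphorins, but with distinct positions only 32.5 against 29.1 RPKM in BxC and 32.4 against 29.6 in CxB. Netrins, at 24.2 and 24.7 RPKM, lay between Unc5 receptors, at 31.6 and 30.9, and Dcc. On coding exons alone Unc5 receptors were 2.09-fold and 1.99-fold the netrins, with 41.2 against 19.7 RPKM in BxC and 39.3 against 19.7 in CxB, and with sense reads alone they were nearly level, at 12.4 against 11.6 RPKM and 11.8 against 11.5. Netrins were 2.49-fold and 2.90-fold the level of Dcc, 1.22-fold and 1.42-fold on coding exons alone and 1.62-fold and 1.88-fold on the longest transcript.

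**Figure D3:**
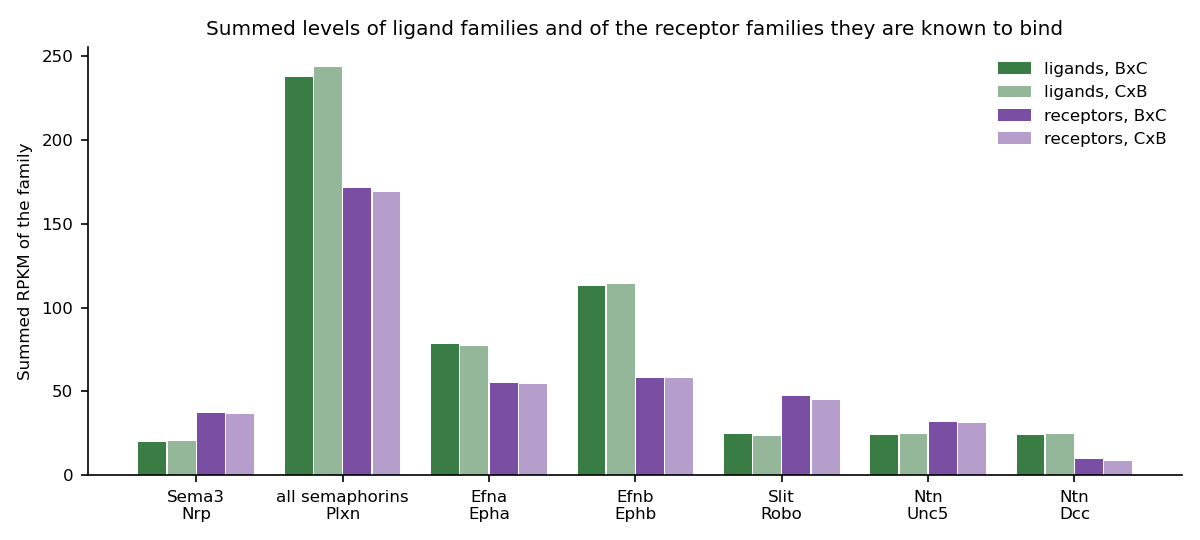
Summed RPKM of the autosomal members of each ligand family (green) and of the receptor family it is known to bind (violet). BxC is in full and CxB in light colour. The pairs are Sema3 with Nrp, all semaphorins with Plxn, Efna with Epha, Efnb with Ephb, Slit with Robo, and Ntn with Unc5 and with Dcc, and within each pair the higher side is the same in both libraries on this scale, while for Efna with Epha it turns when distinct positions are counted.

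Over all families without their X-linked genes, ligands summed to 477 RPKM in BxC and 482 in CxB and receptors to 410 and 402. Ligands thus made up 53.8% (53.7 to 53.9) and 54.5% (54.4 to 54.7) of the total. The share stayed above 50% under each alternative tried and fell to 50.5% and 51.2% when each distinct position was counted once. By median the order was the reverse, with 7.88 RPKM in BxC and 7.22 in CxB for ligands and 10.4 and 9.83 for receptors.

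Levels were then set side by side between the crosses. Of the 65 members with at least 100 reads in each library, 0 were past 1.5-fold in either direction, where the background was 0.843% (113 of 13408 autosomal protein-coding genes, 0.41% higher and 0.433% lower in CxB), a share too low for a count of 0 among 65 to stand apart from it. The median log2 ratio of CxB over BxC was -0.01 (-0.04 to 0.01, an interval over genes), 0.01 with distinct positions and -0.0455 with sense reads. For all those autosomal protein-coding genes it was -0.0014, and the median absolute log2 ratio was 0.07 for the members against 0.09. At this depth counting error was small, and the interval of the ratio left out 0 for 40 of the 65 members, 17 higher and 23 lower in CxB, and for 52.4% of all genes. Without replicates such an interval does not separate the cross, the embryo and the library.

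At a smaller threshold, a log2 ratio of 0.32 in either direction, 2 of the 65 members were past it, both higher in CxB, with a background of 6.68% in either direction, 3.19% higher and 3.49% lower in CxB. They were named after their values were seen. Sema3c, a secreted semaphorin known from the outflow tract of the heart and from cortical axons, had 3.41 RPKM (3142 reads) in BxC and 4.33 (3389 reads) in CxB, a log2 ratio of 0.34 (0.27 to 0.41). Over coding exons alone it had 6.38 and 7.62 RPKM. Epha1, the lowest member, had a log2 ratio of 0.51 (0.11 to 0.90). When distinct positions, sense reads or coding exons were counted, Sema3c stayed within the threshold, and Epha1, with 82 distinct positions in BxC and 72 in CxB, fell under the minimum and had no ratio. Sema3g was the only member past it with distinct positions and with sense reads, at -0.41 and -0.34, and Ntn4 the only member with coding exons, at -0.34.

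Among the receptors, Dcc had a log2 ratio of -0.19 (-0.23 to -0.14) and Epha6 of -0.28 (-0.39 to -0.18), both named after their values were seen. Both lay within the 5th to 95th percentile of all autosomal protein-coding genes at their level. Of the 32 receptors 11 had a ratio above 0, among them Robo3 at 0.19 (0.06 to 0.32). The family sums ranged from 0.878-fold for Dcc to 1.09-fold for Sema7a, CxB over BxC. Blood markers, beside these, were 0.813-fold, choroid plexus markers 1.11-fold and endothelial markers 0.996-fold in CxB, and their part in the members' ratios was not tested.

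**Figure D4:**
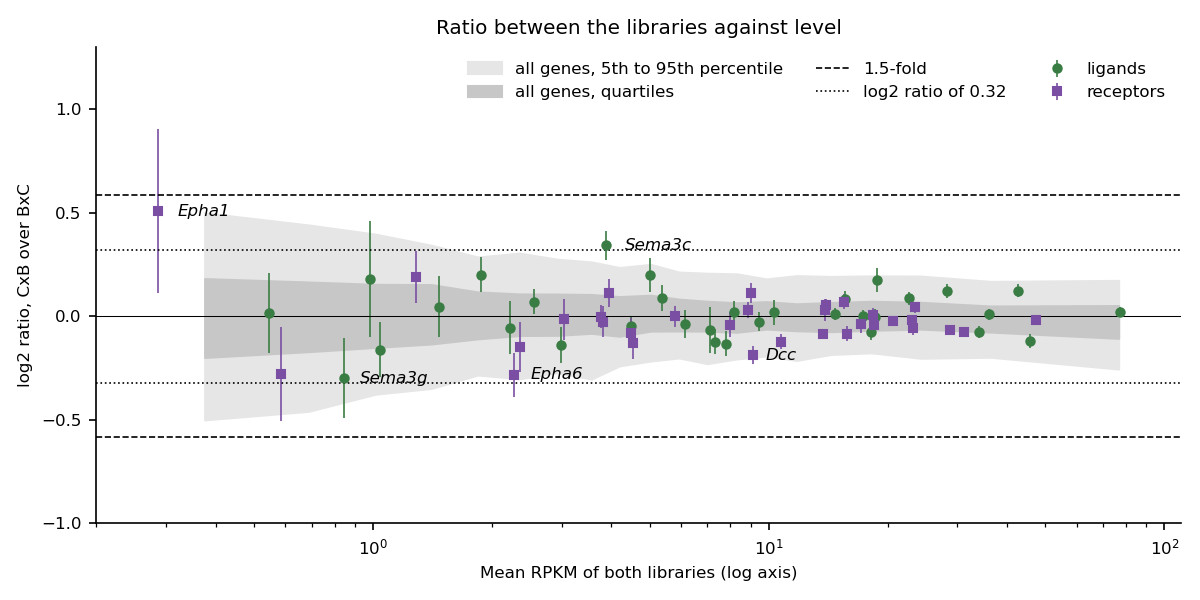
Log2 ratio of CxB over BxC against mean RPKM (log axis) for the 65 members with at least 100 reads in each library, ligands as circles and receptors as squares, with 95% exact intervals for counting error. Grey bands show the 5th to 95th and the 25th to 75th percentile of all autosomal protein-coding genes at that level, dashed and dotted lines mark 1.5-fold and a log2 ratio of 0.32, and only Sema3c and Epha1 lie past the dotted lines.

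The guidance genes had a longer median span than protein-coding genes in all, and part of their reads fell in introns. Their median span was 62.8 kb, against 15.5 kb for all autosomal protein-coding genes. Of the reads within the spans, 27.0% (26.9 to 27.1) in BxC and 28.2% (28.1 to 28.3) in CxB overlapped no exon, and by gene the share ran from 5.10% to 79.5% in BxC and from 3.81% to 84.0% in CxB. With each distinct position counted once the pooled share was 45.4% and 45.6%, and the share over all genes was not computed. Epha6, which spans 952 kb, had the highest share in both libraries and Ntn3, of 5.54 kb, the lowest. Spearman's rho of span and intron share was 0.64 in BxC and 0.65 in CxB across the 66 genes. It is a description, since the genes share libraries and their base composition was not measured. Reads of short transcripts within introns could not be told from unspliced RNA.

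**Figure D5:**
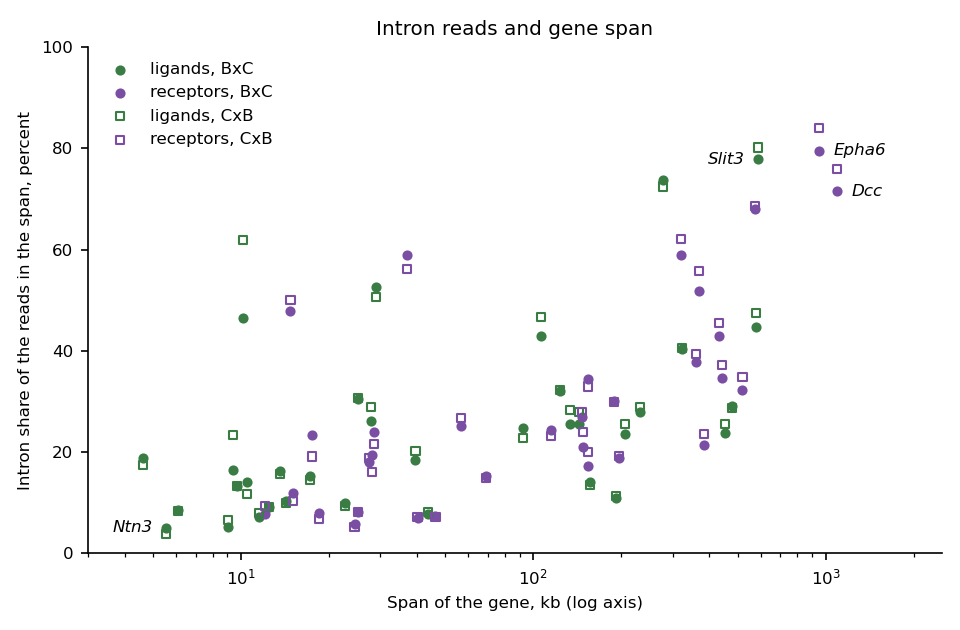
Share of the reads in each gene's span that overlap no exon, in percent, against the span in kb (log axis), for 66 members in BxC (filled circles) and CxB (open squares), ligands in green and receptors in violet. Epha6, Slit3, Efna5 and Dcc, all long genes, are at the top with at least 71.6%, and Ntn3 is at the bottom.

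The reads did not keep the strand of the genes. Over the members, 57.5% (57.4 to 57.6) of exon reads in BxC and 58.3% (58.2 to 58.4) in CxB lay on the strand opposite to the gene, and over all autosomal protein-coding genes 56.9% and 57.4%. Sema6d in BxC and Unc5a in CxB had the highest shares, both 64.4%. Ntn3 had the lowest, 36.5% and 39.5%, and it overlaps the genes Tbc1d24 and BC028777. 28 of the 66 members overlap another annotated gene, and reads of such pairs could not be told apart by strand.

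Levels also depended on the gene model. Coding exons alone gave a higher RPKM than all exons for 52 members and a lower one for 14, with a median of 1.20-fold over the 66. The level was higher by more than 1.5-fold for 10 members, and the lowest ratio was 0.747-fold, for Ntn1. On this scale Robo2 had 30.7 RPKM in BxC and 29.6 in CxB and Ephb2 25.9 and 25.5. Some of the highest and lowest members named above also changed. Sema6c, at 30.5 and 32.3 RPKM, was above Sema6b, at 24.3 and 26.0. Nrp2, at 21.1 and 19.1, was above Nrp1, at 17.4 and 18.2, in both libraries. With coding exons alone, 61 members reached 1 RPKM in both libraries.

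Other genes of the pathway were taken from lists of guidance adhesion molecules and of effectors. All 15 genes of guidance adhesion and coreceptors and 27 of 28 guidance effectors reached 1 RPKM in both libraries, beside 54.7% of autosomal protein-coding genes, and 0 of the 15 and 0 of the 28 were past 1.5-fold in either direction, beside 0.843%. Rgma, a lipid-anchored ligand of neogenin, led the first list with 59.5 RPKM in BxC and 61.6 in CxB, followed by the adhesion molecules Chl1 with 44.8 and 46.5 and Cntn2 with 45.8 and 43.5. The effectors were led by collapsin response mediators, which pass semaphorin signals to the cytoskeleton. Crmp1 had 410 and 408 RPKM, Dpysl3 297 and 308, and Dpysl5 145 and 140. Each of these 3 effectors was above the highest receptor, Plxna1.

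The series also holds a catalog of 128 known imprinted genes, genes expressed from the copy of 1 parent. 1 of the 66 members, Nrp2, lay within 1 Mb of a catalog entry, 0.455 Mb from Zdbf2, where the background was 3.11% of autosomal protein-coding genes. The alignments list no bases, so the parental origin of the members' reads was not measured here.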

How the data were processed

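Polyadenylated RNA of E17.5 brains was sequenced by the authors in reads of 36 bases and aligned with Novoalign to mm9, per the labels and the methods, and 1 library per cross was used here. The deposited alignments list, on each line, a position and a whole-number count, taken here to be how many identical reads the line stands for. This meaning was inferred from the values, and which of the alignments described in the methods was deposited is not stated. With this meaning the totals of both libraries are above the average yield of reads that the methods report, a difference that was not explained. The deposited counts are not normalized. The methods describe a strand-keeping library, but the deposited reads lay on both strands of genes. 0 columns could not be assigned to a library.

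Reads whose aligned blocks overlapped the exons of a gene in GENCODE vM1, on the same build, were counted on either strand and scaled to RPKM by exon length and library total. Exons are the union over transcripts. 1 duplicate record of Efna5 was merged. Junction reads are those whose gap matched the intron exactly. Sequences were read from the mm9 genome.

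Ratios are CxB over BxC, for genes with at least 100 reads in each library, with exact binomial intervals at 95%. RPKM carry exact Poisson intervals, shares of reads exact Clopper-Pearson intervals and medians intervals from order statistics. The ligand share is of summed RPKM, so its interval is not an exact one for a share of reads. The interval of a median reflects the spread among genes taken as independent. The other intervals cover counting error only, and reads without molecular identifiers are not independent molecules. With 1 library per cross a call is a ratio past a fixed fold. The calculations were tested on simulated data. Python 3.11.15, numpy 2.4.6, scipy 1.17.1, pandas 2.3.3, numba 0.67.0 and matplotlib 3.10.9 were used.

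The members and gene lists were chosen with earlier results of these data known. The genes named are, in each family, the members with the highest and lowest mean RPKM, members past 1.5-fold, under the read minimum, with an exon included at 10% to 90% in both libraries, or with the highest antisense or intron share, and the 3 highest genes of each pathway list. Epha2, Ephb2, Ephb6, Robo4, Unc5b, Sema3g, Sema4f, Ntn3, Ntn4, Slit3 and Efna5 were named after their values were seen, as were others where the text says so. Alternatives were distinct positions, sense reads, coding exons, the longest transcript, exon parts of no other gene, other scalings and other minimums. The use of 1 flanking junction, the alternatives at the smaller threshold and for the family pairs, the other junction choices, the search for unannotated exons and the junction counts over all protein-coding genes were added after seeing the data.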

Additional observations from a re-analysis of the deposited data

How the results depend on the processing

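With 1 library per cross no alternative has replicate error. Where a value has an interval, it is counted as moved when it left that interval. Counts of members or exons and ratios of family sums have none, and only their values are given. The number of members past 1.5-fold was 0 under distinct positions, sense reads, coding exons, both scalings and both read minimums, and 2 at the smaller threshold, a log2 ratio of 0.32. The number past the smaller threshold was 2 under both scalings and 1 under distinct positions, sense reads, coding exons and a minimum of 500 reads, and 3 at a minimum of 20 reads, which admits Ntn5. The number of members at 1 RPKM in both libraries ranged from 53 with sense reads, which hold fewer reads by construction, to 64 with distinct positions, and was 42 at 5 RPKM. The ligand share in BxC was 50.5% with distinct positions, 51.6% with coding exons, 51.2% with the longest transcript and 52.5% without Efnb3 and Plxna1, and in CxB 51.2%, 52.9%, 51.9% and 53.2%. The median log2 ratio, -0.015 as reported, was -0.0455 with sense reads and turned to 0.0104 with distinct positions. Distinct positions moved the antisense share to 49.6% in BxC and 51.0% in CxB and the intron share to 45.4% and 45.6%. The intron share was 26.0% and 27.5% with sense reads and 26.9% and 28.1% in span parts of no other gene. The number of exons included at 10% to 90% was 5 with distinct positions and 5 with 50 junction reads, and 9 and 8 from the 5′ or the 3′ junction alone. The exons lost with distinct positions or 50 junction reads had no inclusion value there. With distinct positions the ratio of Efna to Epha sums turned, to 0.917 in BxC and 0.982 in CxB, and the other family pairs kept their higher side under each alternative. The causes were not tested. No paired analysis was possible because each cross has 1 library and no result comes from a test. The member with the fewest reads, Ntn5, had 67 in CxB.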
